A study of Mus musculus with 8 samples.

Results

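The 8 genes described here are Pcp2, Pcp4, Car8, Calb1, Pvalb, Ppp1r17, Itpr1 and Gng13, which are known for calcium handling and signalling in the Purkinje cell of the cerebellum. They were taken as a fixed list of symbols, chosen with earlier results of these data known. The symbols were matched to the Ensembl identifiers of the deposited tables, and all 8 were found among 29713 genes. RNA was sequenced in 8 mouse libraries, 1 per group: cerebellum, cortex and hippocampus of strain C57, glia and neuron preparations from brain of the same strain, fibroblasts from day 13.5 embryos of strain ICR (ICR MEF) and of strain OG2 (OG2 MEF), and a library labelled R1 ESC. R1 is an embryonic stem cell line, with inner cell mass as its source and 129X1 x 129S1 as its strain. Beyond these strain and line names, no treatment, transgene or deletion is named for any of them. Whether the name OG2 itself stands for a transgene is not stated. Their age, sex and the method by which neurons and glia were isolated were not given in the sources used here. Since a group is a single library, there is no replicate error to set a difference against, and p-values are not given.

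The Purkinje cell is the output neuron of the cerebellar cortex. Glutamate released by parallel fibres signals there through Gq and phospholipase C beta to inositol trisphosphate (IP3), and IP3 opens the receptor channel Itpr1 on the endoplasmic reticulum so that stored calcium is released. Car8 is a carbonic anhydrase related protein without enzyme activity that binds Itpr1. Calb1 (calbindin) and Pvalb (parvalbumin) are cytosolic proteins that bind calcium, and Pcp4 is a small protein that binds calmodulin. Pcp2 binds the alpha subunits of inhibitory G proteins, Gng13 is a G protein gamma subunit, and Ppp1r17 is a phosphatase inhibitor that is a substrate of the cGMP-dependent protein kinase.

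In mm10 the genes lie on 6 chromosomes, and all 8 are protein-coding. Pcp2 is at chr8:3623371-3625545 on the minus strand, Pcp4 at chr16:96467606-96525793 on the plus strand and Gng13 at chr17:25717171-25719406 on the plus strand. Car8 is at chr4:8143362-8239041 on the minus strand and Calb1 at chr4:15881264-15908064 on the plus strand. Pvalb is at chr15:78191114-78206400 on the minus strand. Ppp1r17 (chr6:56017497-56032689) and Itpr1 (chr6:108213096-108551109) are both on the plus strand of chromosome 6.

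RefSeq promoter windows (build GRCm38.p6) were at hand for 4 of the 8 genes: Pcp2, Pcp4, Pvalb and Gng13. The 250 bases before the start are printed for Pcp2 (the most upstream of its 4 RefSeq starts) and Pcp4 because they hold AGGTCA, the core site to which the nuclear receptor encoded by Rora, a regulator of Purkinje cell development, binds. The capitals mark that motif, which in Pcp4 stands on the other strand and so reads TGACCT. Both windows run 5′ to 3′ on the strand of the gene, chr8:3625548-3625797 (minus) for Pcp2 and chr16:96467356-96467605 (plus) for Pcp4.
Pcp2: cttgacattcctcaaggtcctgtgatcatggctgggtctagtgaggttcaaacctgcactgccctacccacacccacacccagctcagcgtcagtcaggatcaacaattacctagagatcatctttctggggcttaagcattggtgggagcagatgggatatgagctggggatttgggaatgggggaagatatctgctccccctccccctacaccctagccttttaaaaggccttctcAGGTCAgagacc
Pcp4: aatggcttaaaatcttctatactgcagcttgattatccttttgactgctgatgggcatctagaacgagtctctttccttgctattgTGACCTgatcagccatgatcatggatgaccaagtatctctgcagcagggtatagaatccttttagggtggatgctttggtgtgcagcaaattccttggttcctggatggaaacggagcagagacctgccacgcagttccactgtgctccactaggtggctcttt

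The match began 12 bases before the start of Pcp2 and 164 bases before that of Pcp4. AGGTCA on either strand occurs in 14.0% of all 32851 promoter windows of this length, so a match is common. The Pvalb and Gng13 windows held none, and neither did the Pcp2 window at start position 3625282. TATAAA, the TATA box sequence, was searched on both strands and matched in 1 of the 9 windows of these genes, against 12.4% of all. That match stood on the other strand and began 114 bases before a start inside the Pcp2 gene (position 3625282). A match is a run of letters and not a measured binding site.

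Gng13 has a pair of annotated starts, and the windows before both are printed because the deposited estimates divided its reads between the transcripts that begin there in different shares in different libraries. The capitals mark the E-box, CANNTG, which reads the same on both strands and occurs in 66.2% of all windows. The first is chr17:25716922-25717171 and the second chr17:25717278-25717527, both on the plus strand.
Gng13 first start: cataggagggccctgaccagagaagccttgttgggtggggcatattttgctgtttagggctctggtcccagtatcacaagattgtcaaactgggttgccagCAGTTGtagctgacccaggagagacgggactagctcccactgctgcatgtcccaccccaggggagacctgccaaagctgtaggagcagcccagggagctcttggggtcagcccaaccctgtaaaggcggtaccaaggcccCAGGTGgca
Gng13 second start: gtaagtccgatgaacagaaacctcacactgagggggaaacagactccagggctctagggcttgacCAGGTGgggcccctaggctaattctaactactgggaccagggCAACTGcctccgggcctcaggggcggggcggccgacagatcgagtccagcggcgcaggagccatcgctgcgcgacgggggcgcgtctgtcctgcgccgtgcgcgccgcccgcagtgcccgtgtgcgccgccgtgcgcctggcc

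The windows differ in composition. The first is 58.8% G and C with 2 CpG dinucleotides, and the second is 69.2% G and C with 25. The median over all windows is 52.4% and 6.

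Levels are given as TPM, which the authors scaled by effective transcript length and to the same total in every library, so that genes can be compared within a library. The depth was 2147004 to 5864673 expected counts, at which 3 counts of a 2000-base gene equal between 0.461 and 0.943 TPM. Intervals are exact 95% intervals (Poisson for a level, Clopper-Pearson for a ratio) and cover counting error only. The library labelled R1 ESC held Pou5f1 at 20.2 and Nanog at 10.3 TPM but 0 counts of Zfp42 and Esrrb, which embryonic stem cells express, so it is called by its label throughout.

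**Figure D1:**
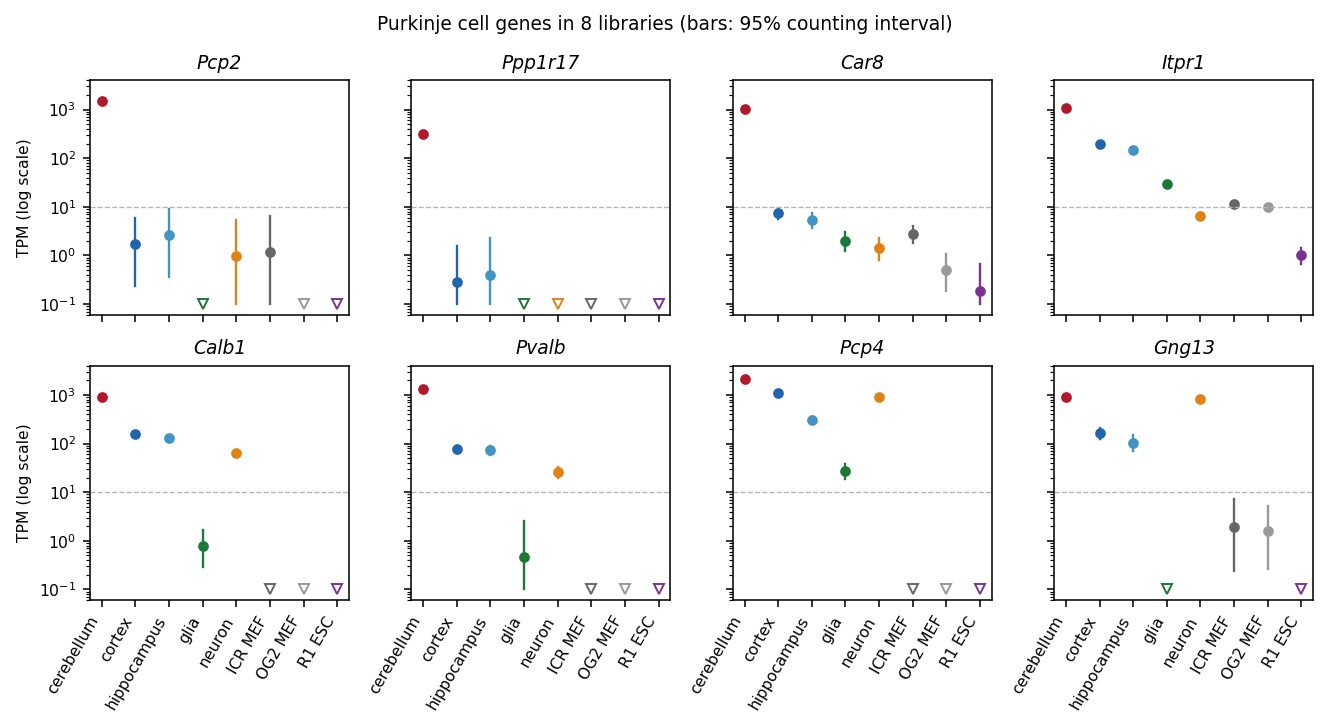
TPM on a log scale for each of the 8 genes in each of the 8 libraries. Points are the single libraries, bars are 95% counting intervals cut at 0.1 TPM, open triangles at the bottom are 0 counts, and the dashed line is 10 TPM. All 8 genes are highest in cerebellum, and only Gng13 has another library, neuron, whose interval overlaps it.

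All 8 genes stood highest in cerebellum, and together they took 0.915% of its TPM and 0.872% of its counts. Their summed level was 9147 TPM in cerebellum, 1842 in neuron, 1712 in cortex and 766 in hippocampus. By share of counts the order of the last 3 was another, with 0.130% in cortex, 0.0873% in hippocampus and 0.0703% in neuron. Glia had 60.3 TPM, ICR MEF 17.5, OG2 MEF 12.0 and the library labelled R1 ESC 1.19. The sums of neuron and cortex were carried mostly by Pcp4 and Gng13 in the first and by Pcp4 in the second. At 10 TPM or more stood 8 of the 8 in cerebellum, 5 in hippocampus, 5 in cortex, 4 in neuron and 2 in glia. Only Itpr1 reached that level in ICR MEF, and none did in OG2 MEF or in the library labelled R1 ESC. In bulk tissue, fewer cells of a type and less RNA per cell cannot be told apart.

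Within cerebellum the order was Pcp4 (2083 TPM), Pcp2 (1507), Pvalb (1332), Itpr1 (1085), Car8 (1016), Calb1 (916), Gng13 (893) and Ppp1r17 (315). Only Calb1 and Gng13 are neighbours whose counting intervals overlap. Of the 8, 7 were among the 100 genes with the highest TPM in that library, from rank 17 for Pcp4 to rank 100 for Gng13, and Ppp1r17 was at rank 521. By counts, which grow with transcript length, the order was another: Itpr1 had 25210 of 5572116 expected counts, the most of any gene in the cerebellum library, whereas Gng13 ranked 1931 by count.

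Set against cortex and hippocampus, 7 of the 8 genes were higher in cerebellum and 0 were lower. A gene was counted as higher on a side where each of its libraries reached 10 TPM and exceeded all libraries across from it by 4-fold or more once 1 was added to TPM. Over all 11728 genes with 10 TPM in at least 1 of these libraries, 2.25% were higher and 3.01% lower. The list was drawn up as Purkinje cell genes, with earlier results of these data known, so the count describes the list. All 8 passed the floor of 10 TPM. Pcp2, Ppp1r17 and Car8 passed it through cerebellum alone and so could not have been counted as lower. The remaining gene, Pcp4, was 1.88-fold above cortex. The median difference of log2(TPM + 1) between cerebellum and the mean of the forebrain regions was 3.46 over the 8 genes and 0.11 over all genes.

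The genes fell into 3 that were near 0 outside cerebellum (Pcp2, Ppp1r17 and Car8) and 5 that were also present in forebrain (Itpr1, Calb1, Pvalb, Gng13 and Pcp4). This division was made after the values were seen.

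Ppp1r17, the phosphatase inhibitor, stood at 315 TPM in cerebellum, 0.40 in hippocampus and 0.28 in cortex, and had 0 counts in glia, neuron, ICR MEF, OG2 MEF and the library labelled R1 ESC. Behind these values were 1184 counts in cerebellum and a single count in each forebrain region. The cerebellum level was 1124-fold that of cortex (201 to 44416) and 786.5-fold that of hippocampus (141 to 31091), intervals whose width comes from those single counts. In neuron, 0 counts allow a level of up to 0.616 TPM at 3 counts, which puts cerebellum at least 510-fold higher.

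Pcp2, the G protein regulator, was at 1507 TPM in cerebellum, 2.61 in hippocampus, 1.73 in cortex, 1.18 in ICR MEF and 0.98 in neuron, with 0 counts in glia, OG2 MEF and the library labelled R1 ESC. The cerebellum value rested on 1245 counts and every other on fewer than 3. The 7 libraries other than cerebellum could not be ordered, since each interval overlapped the next. Cerebellum was 871-fold above cortex (261 to 7817) and 578-fold above hippocampus (175 to 5229). On counts divided by the library total (CPM), which leaves length out, these folds were 553 and 376. The deposited effective length of Pcp2 was 344 bases in cerebellum, 549 in cortex (2.17 counts) and 528 in hippocampus (2.19 counts). Pcp2 shares 865 bases with Pet100 on the other strand, and Pet100 was at 38.1 TPM in cerebellum, 32.8 in cortex, 21.8 in hippocampus and 66.6 in neuron.

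Car8, the Itpr1-binding protein, was at 1016 TPM in cerebellum, 7.35 in cortex, 5.31 in hippocampus, 2.75 in ICR MEF, 2.02 in glia, 1.40 in neuron, 0.50 in OG2 MEF and 0.19 in the library labelled R1 ESC. It was the only one of the 3 with more than a few counts in forebrain, 62 in cortex and 31 in hippocampus against 8985 in cerebellum. Cerebellum was 138-fold above cortex (108 to 180) and 191-fold above hippocampus (135 to 282). The forebrain regions overlapped each other, and cortex stood 5.25-fold above neuron (2.99 to 9.75) on TPM but 2.87-fold on CPM.

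As a share of their cerebellum level, Ppp1r17 stood at 0.0890% in cortex and 0.127% in hippocampus, Pcp2 at 0.115% and 0.173%, and Car8 at 0.723% and 0.523%. Of 7 markers of cerebellar granule neurons, the 3 with the lowest shares were Gabra6, a GABA-A receptor subunit (0.0791% and 0.138%), the cadherin gene Fat2 (0.114% and 0.266%) and Cbln3, a secreted synapse protein (0.132% and 0.281%). The other 4 (Zic1, Zic2, Neurod1 and Etv1) stood between 1.62% and 25.9%. Ppp1r17 and Pcp2, with 1 to 2.19 counts behind each forebrain value, thus stood near the lowest granule markers, and Car8 above them in both regions. The source of these traces was not tested.

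**Figure D2:**
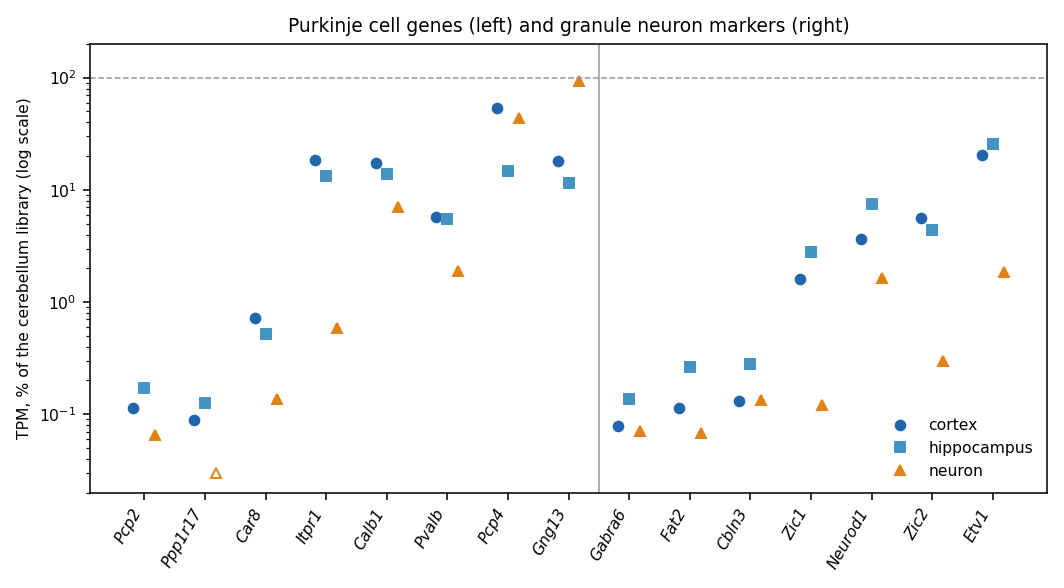
TPM in cortex, hippocampus and neuron as a percentage of the cerebellum level of the same gene, on a log scale, for the 8 genes (left) and 7 granule neuron markers (right). Each symbol is 1 library, the dashed line is 100%, and the open triangle is 0 counts. Pcp2 and Ppp1r17 lie below 0.2% in all 3 libraries, while Gng13 in neuron is at 93.1%.

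Itpr1, the IP3 receptor, was at 1085 TPM in cerebellum, 198 in cortex, 144 in hippocampus, 30.15 in glia, 11.6 and 9.91 in ICR MEF and OG2 MEF, 6.38 in neuron, and lowest in the library labelled R1 ESC (1.00). It was detected in every library, and apart from the MEF pair no neighbours in this order overlapped. Cerebellum was 5.47-fold above cortex (5.30 to 5.65) and 7.53-fold above hippocampus (7.21 to 7.87). Cortex was 1.38-fold above hippocampus (1.31 to 1.45).

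Calb1 was at 916 TPM in cerebellum, 160 in cortex, 128 in hippocampus, 64.1 in the neuron library and 0.78 in glia, with 0 counts in ICR MEF, OG2 MEF and the library labelled R1 ESC. The fold of cerebellum was 5.72 over cortex (5.36 to 6.10) and 7.16 over hippocampus (6.60 to 7.79), close to those of Itpr1. The 4222-base transcript model made up 66.0% to 66.3% of Calb1 transcripts in cerebellum, 69.1% to 69.4% in cortex, 72.6% to 72.9% in hippocampus and 84.8% to 85.0% in neuron, as worked out from the deposited mean lengths. The remainder falls to a pair of retained-intron models of 701 and 736 bases. Of the Calb1 counts, the 4222-base model took 93.3% to 93.8% in cerebellum and 94.1% to 94.5% in cortex. In hippocampus it took 95.1% to 95.4% of the counts and in neuron 97.5% to 97.7%.

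Pvalb was at 1332 TPM in cerebellum, 76.6 in cortex, 72.9 in hippocampus, 25.45 in the neuron library and 0.47 in glia (1 count), with 0 counts in the MEF libraries and the library labelled R1 ESC. It showed the steepest step between cerebellum and forebrain among the 5 genes present in both, 17.4-fold over cortex (14.7 to 20.7) and 18.3-fold over hippocampus (14.8 to 22.8). Cortex and hippocampus did not differ beyond counting error (1.05-fold, 0.802 to 1.38). Besides Purkinje cells, Pvalb is known from fast-spiking interneurons in cerebellum and forebrain. Markers of GABAergic interneurons summed to 1606 TPM in cortex, 1193 in hippocampus and 649 in cerebellum. In cerebellum 2 of the 6, the GABA-synthesising enzymes Gad1 and Gad2, which Purkinje cells also use, were at 10 TPM or more, and Vip had 0 counts.

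Gng13 was at 893 TPM in cerebellum, 831 in neuron, 161 in cortex, 104 in hippocampus, 1.96 in ICR MEF and 1.59 in OG2 MEF, with 0 counts in glia and in the library labelled R1 ESC. Cerebellum and neuron formed the high pair, 1.07-fold apart (0.955 to 1.21), and cortex and hippocampus the middle pair, 1.56-fold apart (0.989 to 2.52). Cerebellum was 5.53-fold above cortex (4.30 to 7.21) and 8.62-fold above hippocampus (5.91 to 13.1). On CPM, which divides counts by the library total and leaves length out, the same folds were 10.3 and 17.0.

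The gap between the scales goes with the transcript models. The deposited mean length of Gng13 was 506 bases in cerebellum, 347 in cortex, 353 in hippocampus and 351 in neuron. From these, the 719-base model that begins at the first start made up 42.6% of Gng13 transcripts in cerebellum, 0% in cortex (67 counts), 1.55% in hippocampus (28 counts) and 1.19% in neuron (483 counts). The 347-base model that begins at the second start made up the rest. The models also differ at the other end, and the long one shares 358 bases with Chtf18 on the opposite strand, which had 15.0 counts in cerebellum. The first exon and the end cannot be told apart in these gene-level values.

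Pcp4 was at 2083 TPM in cerebellum, 1106 in cortex, 912 in neuron, 309 in hippocampus and 26.9 in glia, with 0 counts in ICR MEF, OG2 MEF and the library labelled R1 ESC. No neighbours with counts overlapped. Cerebellum was 1.88-fold above cortex (1.76 to 2.02) and 6.74-fold above hippocampus (5.88 to 7.76). Pcp4 was thus counted as higher in cerebellum only when cortex was left out, with a log2 difference of 2.75 against hippocampus alone.

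Cortex and hippocampus were compared with each other for the genes present in both. Of the 8 genes, 0 were counted as higher in either region, against 0.832% of 11059 genes higher in cortex and 0.452% higher in hippocampus, and 5 of the 8 passed the floor of 10 TPM. Pcp4 came nearest, 3.58-fold higher in cortex (3.10 to 4.15). Markers of striatal projection neurons, a cell type in which Pcp4 is also known, moved the same way: all 7 were counted higher in cortex, with a summed level of 2404 TPM in cortex, 143 in hippocampus and 573 in cerebellum, where Drd1 and Drd2 had 0 counts. Their part in the Pcp4 difference was not tested.

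The genes of the same pathway were counted from lists drawn up for these members, also with earlier results of these data known. Of 11 genes from the glutamate receptor to IP3, 4 were higher in cerebellum than in forebrain and 0 lower, with a median log2 difference of 1.91 beside 0.11 over all genes. Homer3, a postsynaptic scaffold protein that binds Itpr1, stood at 421 TPM in cerebellum, with 18.2 in cortex and 75.5 in hippocampus. Inpp5a, which removes a phosphate from IP3, was at 412, 46.4 and 32.6 TPM in the same order. Plcb4, a phospholipase C beta gene known from Purkinje cells, was at 294, 31.9 and 22.5 TPM.

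Among 12 calcium channels and pumps, 1 was higher and 0 were lower, and the median was 0.39. That 1 was Atp2a3, a calcium pump of the endoplasmic reticulum, at 164 TPM in cerebellum against 5.09 in cortex and 4.18 in hippocampus. The more abundant pump of the same kind, Atp2a2, was at 714, 458 and 466 TPM. The T-type channel gene Cacna1g was at 240.5, 60.7 and 55.4 TPM, just short of the limit, and the P/Q-type channel gene Cacna1a at 223, 109 and 117 TPM.

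Among 15 other calcium sensors and buffers, 1 was higher and 4 were lower, and the median was -0.85. Calb2 (calretinin), known from granule and unipolar brush cells rather than Purkinje cells, was higher at 568 TPM in cerebellum against 47.4 in cortex and 61.5 in hippocampus. The neuronal calcium sensors Hpca (163, 1107 and 2596 TPM) and Hpcal4 (26.8, 713 and 601 TPM) were lower, as were Necab1 (14.1, 92.2 and 59.4 TPM) and Necab2 (5.61, 137 and 113 TPM).

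Of 22 G protein subunits and regulators, 0 were higher and 2 were lower, and the median was -0.36. The lower genes were Gng7, a gamma subunit of striatal neurons, at 17.1 TPM in cerebellum against 299 in cortex and 133 in hippocampus, and Rgs14, a regulator known from hippocampal area CA2, with 0 counts in cerebellum against 60.7 and 86.8 TPM. Of 12 phosphatase and cGMP pathway genes, 1 was higher and 1 lower, and the median was 0.03. Pde5a, a cGMP phosphodiesterase, was higher at 43.1 TPM in cerebellum against 4.33 and 4.42, and the phosphatase inhibitor Ppp1r1a was lower at 11.85 TPM against 126 and 117.

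Of 12 other genes known from Purkinje neurons, 9 were higher in cerebellum and 0 lower. Several of the 9, among them Lhx1, Lhx5, Ebf1 and Stk17b, reached 10 TPM in cerebellum alone and so could not have been counted as lower. The count describes a list drawn up as Purkinje genes. The 9 included the transcription factor genes Rora, Lhx1, Lhx5 and Ebf1, the glutamate transporter gene Slc1a6, the G protein regulator Rgs8 and the kinase gene Stk17b. Rgs8 was the most abundant of them, at 711 TPM in cerebellum against 92.6 in cortex and 59.9 in hippocampus. Lhx1, at 51.3, 0.73 and 0 TPM, had the largest log2 difference (5.31). Those not counted were Dner (499, 171 and 116 TPM), Skor2 (9.95, 0 and 0 TPM, under the floor) and Foxp2 (4.32, 14.5 and 1.19 TPM). Granule neuron markers were higher as well, 6 of 7, with summed levels of 3062 TPM in cerebellum against 87.3 in cortex and 122 in hippocampus, and their part in these differences was not tested.

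**Figure D3:**
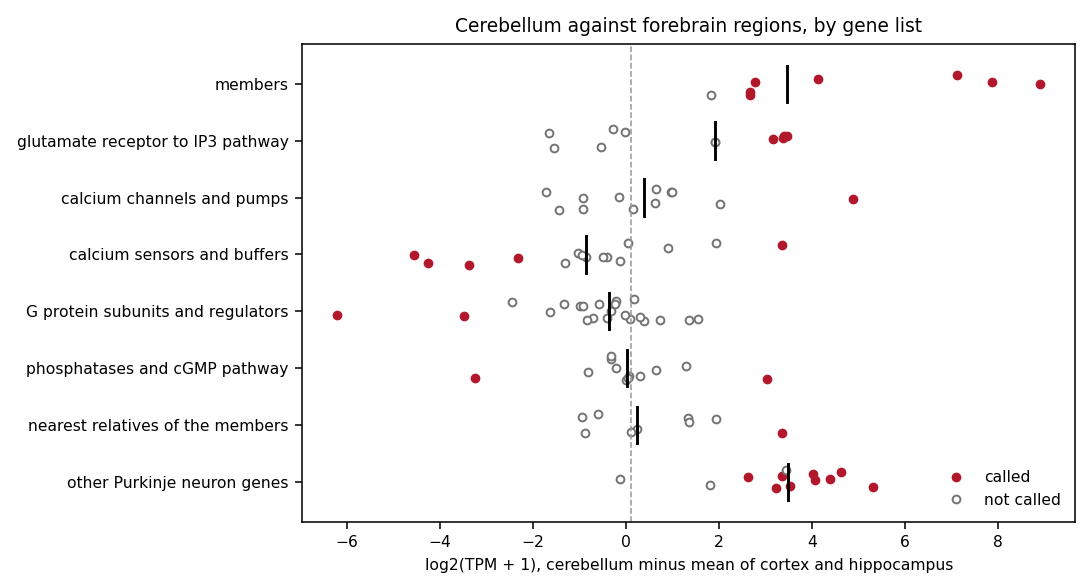
Difference of log2(TPM + 1) between cerebellum and the mean of cortex and hippocampus for each gene of 8 lists. Filled points were counted as higher or lower, open points were not, black bars are list medians and the dashed line is the median of all genes (0.11). The 8 genes (top) and the other Purkinje neuron genes (bottom) have medians of 3.46 and 3.50, and the G protein list has its outlying points on the lower side.

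Within their families, the members took most of the level in cerebellum. Itpr1 made up 98.2% of the TPM of the 3 IP3 receptor genes in cerebellum, 94.8% in cortex, 94.0% in hippocampus and 95.4% in neuron. Its share was 77.2% in glia. In ICR MEF it was 19.4%, in OG2 MEF 20.6% and in the library labelled R1 ESC 8.03%, and Itpr3 led in these 3 with 65.0%, 67.8% and 67.6%. The neuron share rests on a low sum, 6.69 TPM for all 3 genes.

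Gng13 made up 64.0% of the TPM of 10 gamma subunit genes in cerebellum, 42.5% in neuron, 13.2% in cortex and 11.0% in hippocampus. In cortex the leading gamma gene was Gng7 (24.4%), in hippocampus Gng2 (25.1%), and in glia, ICR MEF and OG2 MEF Gng5 (67.1%, 54.9% and 57.8%). The sum over the 10 genes was 1394 TPM in cerebellum and 1227 in cortex. Car8 made up 82.8% of the TPM of the carbonic anhydrase related genes Car8, Car10 and Car11 in cerebellum but 2.49% in cortex, 2.77% in hippocampus and 1.06% in neuron, where Car11 led with 72.7%, 84.1% and 91.7%. Of the summed level of the buffers Pvalb, Calb1 and Calb2, 47.3% was Pvalb, 32.5% Calb1 and 20.2% Calb2 in cerebellum, while in cortex Calb1 led with 56.4%.

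**Figure D4:**
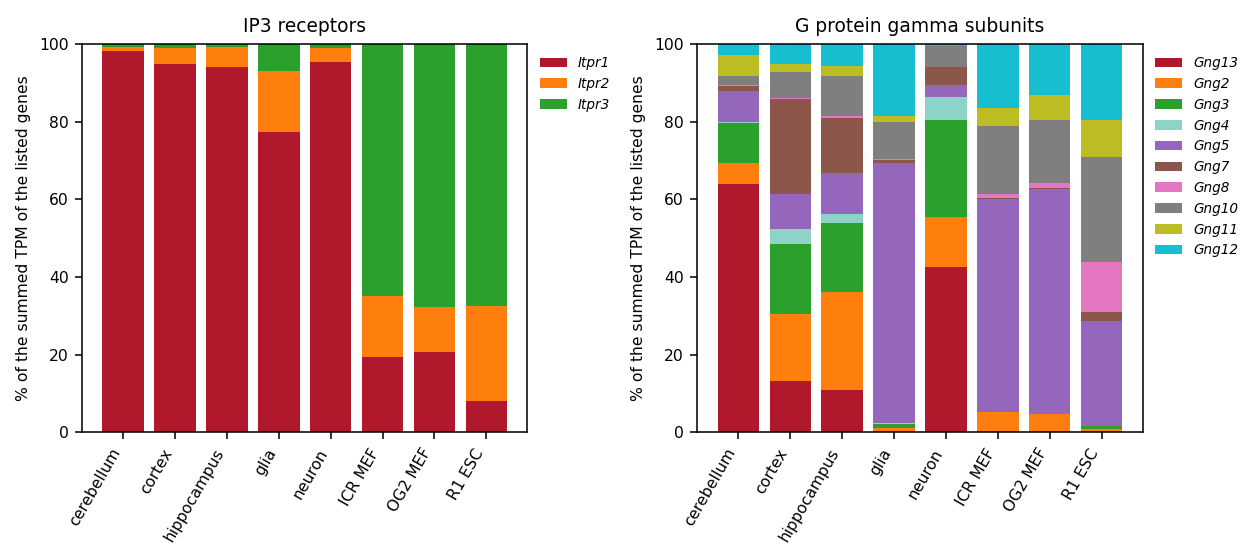
Share of each gene in the summed TPM of its family in the 8 libraries, for 3 IP3 receptors (left) and 10 G protein gamma subunits (right). Itpr1 is at 94.0% or more in cerebellum, cortex, hippocampus and neuron, and Gng13 is the largest gamma subunit in cerebellum and neuron.

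In the neuron preparation, 4 of the 8 genes were at 10 TPM or more: Pcp4 (912 TPM), Gng13 (831), Calb1 (64.1) and Pvalb (25.45). Itpr1 (6.38), Car8 (1.40), Pcp2 (0.98) and Ppp1r17 (0 counts) were below. The intervals of Pcp4 and Gng13 overlapped. The label does not give the region the neurons came from. All 6 pan-neuronal markers were at 10 TPM or more, and of the forebrain excitatory markers 4 of 6 were, among them Emx1 at 36.4 and Neurod6 at 58.8 TPM. The excitatory markers summed to 447 TPM in neuron, 2832 in cortex and 3713 in hippocampus, and 0 were higher and 2 lower than in these regions. Of 6 dentate and CA2 neuron markers 0 reached 10 TPM in neuron. Of the 6 GABAergic interneuron markers 4 reached 10 TPM, with a sum of 1189 TPM, most of it the peptide gene Sst at 1080 TPM. Against cortex and hippocampus 0 of these 6 were higher and 3 were lower. Of the granule neuron markers 0 of 7 reached 10 TPM, with a sum of 13.7 TPM.

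Against cortex and hippocampus, 1 of the 8 genes (Gng13) was higher in neuron and 1 (Itpr1) lower, where 2.14% of 11354 genes were higher and 21.4% lower, and 5 of the 8 passed the floor. This comparison shares its cortex and hippocampus libraries with that of cerebellum. Gng13 was 5.15-fold above cortex (3.98 to 6.75) and 8.03-fold above hippocampus (5.48 to 12.2), and 9.72-fold and 16.0-fold on CPM. Itpr1 was at 0.0322 of its cortex level (0.0277 to 0.0372) and 0.0443 of its hippocampus level (0.0380 to 0.0514), that is 31.1-fold and 22.6-fold lower on TPM and 17.1-fold and 12.5-fold lower on CPM. On TPM, Pcp4 lay between the regions, at 0.825 of cortex and 2.95-fold above hippocampus. On CPM it stood above both, 1.51-fold and 5.54-fold, and with TMM factors (an edgeR scaling between libraries) it was also above both, by 0.64 on the log2 scale over the nearer one. Calb1 was at 0.400 of cortex and 0.501 of hippocampus on TPM but at 0.863 and 1.03 on CPM, so its position against hippocampus depends on the scale. Pvalb was at 0.332 and 0.349 on TPM and 0.607 and 0.644 on CPM. Pcp4, Calb1 and Pvalb were not counted as higher or lower on either scale.

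The neuron library differed from the regions by transcript length. A count came on average from 2488 bases of effective length in neuron and from 3730 to 3740 in the regions. The median difference of log2(TPM + 1), neuron minus the forebrain mean, was 1.81 over 175 genes under 500 bases, 0.87 from 500 to 1000 bases, -1.24 from 2000 to 4000 bases and -2.44 over 297 genes of 8000 bases or more. Gng13 (350 bases) had 2.67, between the quartiles of its length class (0.35 and 3.82), as did Pcp4 (641 bases) with 0.64 (0.02 and 1.52) and Calb1 (3368 bases) with -1.15 (-2.03 and -0.55). Itpr1 (9848 bases), with -4.53, lay below the lower quartile of its class (-3.00), and Pvalb (977 bases), with -1.52, below that of its own. The part of length in the Gng13 and Itpr1 differences was not tested.

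**Figure D5:**
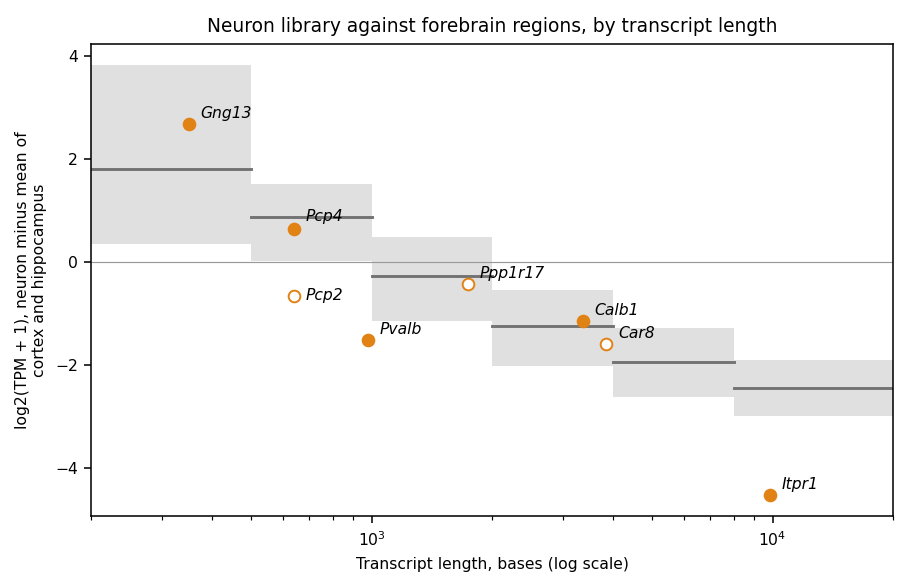
Difference of log2(TPM + 1) between the neuron library and the mean of cortex and hippocampus against mean transcript length in bases (log scale). Grey boxes span the quartiles of all genes in 6 length classes with the median as a line, filled points are the 5 genes at 10 TPM or more in at least 1 of these libraries, and open points are the other 3. Gng13, Pcp4 and Calb1 lie within the quartiles of their classes, and Itpr1 lies below them at -4.53.

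The pathway lists were counted in the neuron library against the same regions, where 21.4% of all genes were lower and the median over all genes was -1.10. Of 11 genes from the glutamate receptor to IP3, 5 were lower than in forebrain, among them Gnaq, Plcb3, Plcb4 and Homer1, and 0 higher, with a median of -2.53. Of 12 calcium channels and pumps, 9 were lower and 0 higher, with a median of -2.69. Over all genes of 4000 to 8000 bases the median was -1.93, and over those of 8000 bases or more -2.44. The part of transcript length in the values of these lists was not tested. Of 15 sensors and buffers, 2 were lower (Hpca and Hpcal4) and 0 higher, with a median of -0.71. Of 22 G protein genes 5 were lower and 0 higher (median -0.70), and of 12 phosphatase and cGMP pathway genes 1 was lower and 0 higher (median -0.76). These 3 medians lie above that of all genes, and their shares of lower genes are near or under the background. Gng3 (491 TPM in neuron, 219 in cortex and 167 in hippocampus) and Gng4 (114, 47.7 and 23.1 TPM) stood above both regions beside Gng13, and Gng11, at 0 counts in neuron, and Gng12 were lower.

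Against glia, 4 of the 8 genes were higher in neuron (Gng13, Pcp4, Calb1 and Pvalb) and 1 was lower (Itpr1), where 10.4% of 11185 genes were higher and 30.5% lower, and 5 of the 8 passed the floor. Gng13 was at least 265-fold higher, since glia had 0 counts, set here to 3. Calb1 was 82.1-fold higher (37.5 to 225), Pcp4 33.9-fold (24.1 to 49.1) and Pvalb 54.1-fold (9.38 to 2172), the last against 1 count. Itpr1 was 4.73-fold higher in glia (4.03 to 5.56), which was no longer counted on CPM, with TMM factors or with 5 TPM added. In glia, 3 of 6 pan-neuronal markers were at 10 TPM or more, with a sum of 339 TPM against 4972 in neuron, and astrocyte markers summed to 2459 TPM. Their part in the 26.9 TPM of Pcp4 and the 30.15 TPM of Itpr1 in glia was not tested.

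Outside the nervous system the 8 genes stood between 0 and 11.6 TPM. Against ICR MEF, OG2 MEF and the library labelled R1 ESC, 5 of the 8 (Pcp4, Calb1, Pvalb, Gng13 and Itpr1) were higher in all 3 brain regions and 0 lower, where 13.5% of 12831 genes were higher and 1.33% lower. Pcp2, Car8 and Ppp1r17 were not counted, and their cortex and hippocampus levels were under 10 TPM. Their smallest log2 differences from the non-neural libraries (0.32, 0.75 and 0.36) were short of 4-fold as well. Pcp4, Calb1 and Pvalb had 0 counts in all 3 non-neural libraries, so hippocampus was at least 136-fold, 203-fold and 53.8-fold above ICR MEF for these genes. Itpr1, at 310 counts in ICR MEF and 312 in OG2 MEF, was the only one with more than 28 counts in any of the 3, and hippocampus was 12.4-fold above ICR MEF (11.0 to 14.1).

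Other genes with a similar pattern over the 8 libraries were found by Pearson's r of log2(TPM + 1) among 12258 genes, given here as a description. Both values of a point come from the same library and share its depth, and a single library far above the rest weighs heavily in such a value. Nearest to Ppp1r17 were the D-amino acid oxidase gene Dao (0.9995), Fat2 (0.9995) and the glycine transporter gene Slc6a5 (0.9993), and nearest to Pcp2 were Eomes (0.997), Gabra6 (0.994) and Dao (0.990). Nearest to Car8 were Asgr1 (0.988), Grid2ip (0.985), which was on the list of other Purkinje neuron genes, and Ret (0.985). Gabra6 is known from granule cells, Eomes from unipolar brush cells and Slc6a5 from Golgi cells of the cerebellum.

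For the genes present in forebrain the nearest patterns were others. Calb1 was nearest to Mmp24 (0.997), Lin7a (0.996) and Kcnt1 (0.996), and Pvalb to Ercc8 (0.994), Ptprr (0.994) and Ablim3 (0.992). Itpr1 was nearest to Cdc7 (0.994), Cdk19 (0.993) and Dot1l (0.993), and Pcp4 to Cdh22 (0.996), Fam184b (0.992) and Pick1 (0.991). Gng13, whose cerebellum and neuron intervals overlapped, was nearest to Kcnk12 (0.985), Slc29a4 (0.983) and Tmem145 (0.982). Of these, Slc29a4, a monoamine transporter gene, was higher in neuron (102 TPM) than in cerebellum (44.2 TPM).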

How the data were processed

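RNA was extracted with Trizol, and the Illumina TruSeq RNA kit was used on 1 ug of it, per the labels' protocols. Bowtie, RSEM and the build mm10 are named in the submitters' processing notes. Tool versions, strandedness and the annotation release were not given in the sources used here. Expected counts from RSEM and TPM values, scaled by the authors with effective lengths, were deposited for 29713 genes in each library, per the file headers. Nothing was mapped again here. From the counts and effective lengths, 99.9% of TPM values of 10 or more were recomputed within 1%, and 88.9% of counts were whole.

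Of the gene identifiers, 29202 had a symbol. Gene and transcript coordinates came from GENCODE M21 (GRCm38), whose lengths matched the deposited ones exactly for 6 of the 8 members; Ppp1r17 and Itpr1 were 1738 and 9848 bases in the files and 1757 and 9870 in the annotation. Shares of transcript models were solved from the deposited mean lengths. Promoter windows came from RefSeq. Protein sequences were not used here.

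Each group held 1 library, so no test was run. For 5 comparisons a gene counted as higher by the rule given with the first of them, with a floor of 10 TPM, 1 TPM added and a limit of 4-fold. Folds are ratios of TPM, their 95% intervals are exact (Clopper-Pearson), and 0 counts were replaced by 3 for a lower bound. Simulated data were drawn with counting error alone from 29713 genes. Only genes of middle level were changed, and all were made higher on the first side, so low-level or lowered genes were not tried. The rule found 97 of 100 genes made 8-fold different between cerebellum and forebrain. As the limit was 4-fold, 0 of 100 genes made 2-fold different were found by the rule. Of the genes left unchanged it counted 0 there, 8 between cortex and hippocampus, 7 between neuron and forebrain, 15 between neuron and glia and 0 between brain and non-neural libraries. Alternatives were 0.1 or 5 TPM added, a floor of 1 TPM, counts scaled to the library total (CPM) and TMM factors of the TPM. Others were TPM recomputed from counts and counts thinned to the shallowest library. Libraries were also left out 1 at a time, but only from a side that held more than 1, so neuron and glia never were.

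The members and the 7 pathway lists were chosen with earlier results of these data known. Named genes are the members, the list genes called in a comparison or, otherwise, up to 4 with the highest cerebellum TPM, and the 3 genes most like each member; Itpr2, Itpr3, Skor2 and the marker genes named beside a result were picked outside that rule after their values were seen. Some genes that met the rule are left out of the text. Python 3.11.15 (scipy 1.17.1, numpy 2.4.6, pandas 2.3.3, matplotlib 3.10.9) was used, with edgeR 4.0.16 in R 4.3.3 to get TMM factors.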

Additional observations from a re-analysis of the deposited data

How the results depend on the processing

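No paired analysis was possible because each group held 1 library. Of the values of single members under the alternatives, 275 were counted as before, 0 of the counted ones changed direction, 1 was newly counted and 4 were no longer counted. The cause was not tested. Pcp4 was counted higher in cerebellum without cortex (log2 2.75). Itpr1 was no longer counted between neuron and glia with 5 TPM added (-1.63), on CPM (-1.54) or with TMM factors (-1.30), which left 0 members lower there, and Gng13 was no longer counted between brain and non-neural libraries on CPM: its difference (2.56) was still past the limit, but hippocampus, at 7.59 CPM, was under the floor of 10. The members higher in cerebellum numbered 7 or 8 under every alternative and when cortex or hippocampus was left out.

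Counts over all genes moved more. Cerebellum against forebrain gave 152 higher and 214 lower genes with 5 TPM added, in place of 264 and 353, and from 341 to 376 higher and from 497 to 564 lower when cortex or hippocampus was left out. Cortex against hippocampus (92 and 50) gave 38 and 21 with 5 TPM added, 209 and 125 with a floor of 1 TPM, 61 and 32 with TMM factors, and 33 lower on CPM. Neuron against forebrain (243 and 2431) gave 1201 lower with 5 TPM added, 591 and 1316 on CPM and 800 and 821 with TMM factors, so that the higher share of all called genes was 9.09%, 31.0% on CPM and 49.4% with TMM factors; leaving out a region gave 301 to 358 higher and 2933 to 2993 lower. Neuron against glia (1163 and 3412, 25.4% higher) gave 2232 lower with 5 TPM added and 1920 and 2050 with TMM factors (48.4% higher, and 39.4% on CPM). Brain against non-neural libraries (1732 and 171, 91.0% higher) gave 401 lower on CPM (78.7% higher), 1035 and 574 with TMM factors (64.3% higher), and from 1807 to 2281 higher and from 183 to 716 lower when 1 library was left out, the 716 without the library labelled R1 ESC.

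TPM recomputed from counts and effective lengths left all 64 levels within their counting intervals. Counts thinned to 2147003 per library moved 8 of 64. Pcp4 went from 2083 to 1957 TPM in cerebellum and from 1106 to 1025 in cortex, Gng13 from 893 to 971 in cerebellum, and Car8 in glia from 2.02 to 1.05, while 4 values that rested on 1 or 2 counts fell to 0. At these depths a level under about 1 TPM on a gene of 2000 bases is a few counts, and without replicates no difference can be set against variation between animals.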
